A study of Mus musculus with 9 samples.

Results

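The transcriptional difference made by liraglutide in high glucose was taken from 6 of the 9 libraries of the series, 3 of the group HL (25 mmol/L glucose and 200 nmol/L liraglutide) and 3 of the group H (25 mmol/L glucose), all cultured for 48 h. All 9 libraries came from C2C12, an established line of mouse myoblasts, and the remaining 3 belong to the control group (NC), whose glucose concentration the labels do not give. Of the 54307 genes of the deposited table, 13358 reached 1 FPKM (fragments per kilobase of transcript, scaled to the mapped fragments of the library) in at least 3 of the 6 libraries and were tested. At the edge of this rule lay 715 genes that reached 1 FPKM in exactly 3 libraries, with a median third-highest value of 1.3 FPKM, and 577 genes that reached it in exactly 2, with a median third-highest value of 0.814 FPKM. The labels name no vehicle for H and do not state if the triplicates were grown as separate cultures, and the methods of the study speak of independent repeats in general without tying them to these libraries. The p-values therefore cover the spread between these samples only, and that spread may be technical.

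Liraglutide is a drug modelled on the gut hormone GLP-1. It activates the GLP-1 receptor, a receptor coupled to Gs that raises cyclic AMP (cAMP) and is best known from pancreatic beta cells. Proliferating myoblasts carry the myogenic factors MYOD1 and MYF5, leave the cell cycle on differentiation, and then switch on myogenin and the genes of the sarcomere. High concentrations of a solute outside the cell induce genes under the transcription factor NFAT5, which take up or make small organic osmolytes and protect proteins.

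By the spacing of the lowest values, each library held 17.34 to 23.02 M reads (M for mega), so that 1 read in a transcript of 2000 bases stood for 0.0252 to 0.0332 FPKM. Correlations of log2 values were 0.966 to 0.970 within H, 0.973 to 0.977 within HL and 0.889 to 0.916 between them, and the median SD of a gene was 0.168 on the log2 scale in H and 0.0847 in HL. The myoblast markers Myod1, Myf5, Des, Cdh15, Itga7, Ncam1 and Chrna1 were above 4 FPKM in all 6 libraries, whereas Pax7 and Pax3, the paired-box factors of satellite cells, stayed under 1 FPKM. Of 12 macrophage markers, 9 were under 1 FPKM in all 6 libraries, among them Ptprc, Adgre1, Itgam, Itgax, Tyrobp and Fcer1g at or near 0 and Lyz2 and Aif1 at 0.176 to 0.878 FPKM, while Spi1, the macrophage transcription factor, was at 0.177 to 0.327 FPKM in H and at 0 in HL. The other 3, Csf1r, Cd14 and Cd68, were above 10 FPKM in H, and the sum of all 12 was 171 to 248 FPKM in H and 50 to 52.8 FPKM in HL. The part of other cell types in the results below was not tested.

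Transcripts were called higher or lower in HL at an adjusted p under 0.05 (limma on log2(FPKM + 0.1), Benjamini-Hochberg) together with an absolute log2 fold change over 1. Every fold change below is on this scale, where the added 0.1 understates the change of low genes. By this rule 468 genes were higher with liraglutide (3.50% of those tested) and 787 were lower (5.89%), together 9.40%. The 2 directions differed in size: the called rises had a median log2 fold change of 1.23 and only 17 exceeded 2, whereas the called falls had a median of -1.73 and 339 exceeded 2 in size, 125 of them even 4. The median over all tested genes was 0.04 on the log2 scale, and it was -0.06 after each library was rescaled to a common FPKM total (TPM), where 71.9% of the calls were lower against 62.7% as deposited. In 66 of the genes called lower, all 3 HL libraries were listed at 0. Of the tested genes, 383 had passed the level filter through the H libraries alone and 106 through the HL libraries alone, and for these a difference follows from the filter. They supplied 331 of the falls and 67 of the rises that were called. The HL libraries lay wholly above the H libraries in 4134 genes (30.9%) and wholly below them in 3362 (25.2%). A bulk measurement cannot tell fewer cells with a transcript from less of the transcript in each cell.

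**Figure D1:**
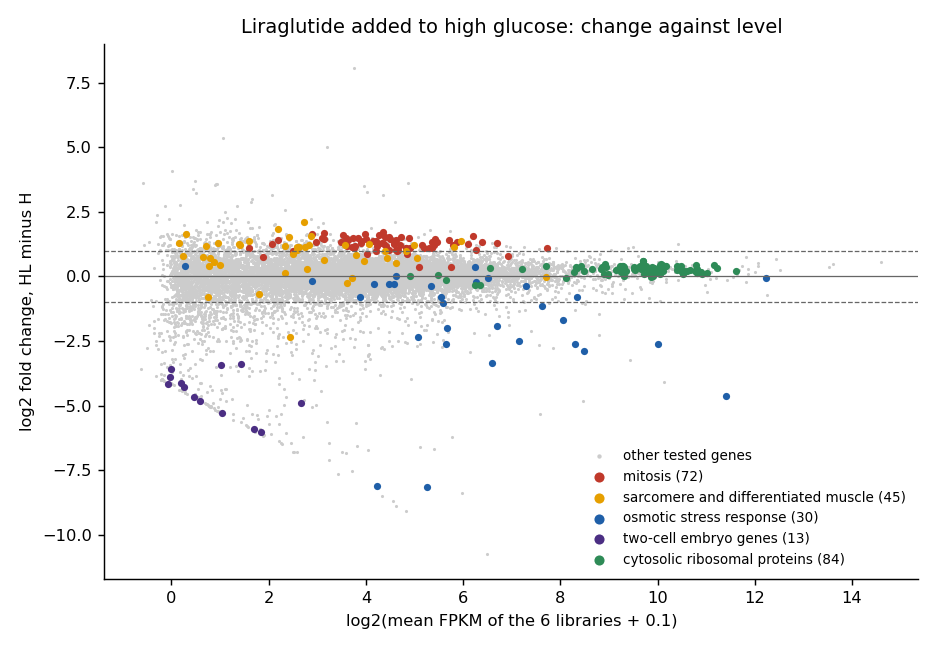
Each point is 1 of the 13358 tested genes, with its mean level over the 6 libraries (log2 of FPKM + 0.1) on the horizontal axis and its log2 fold change, HL minus H, on the vertical axis, and the dashed lines mark a change of 1 in either direction. The 72 mitosis genes lie in a band between 0.35 and 1.71, the 84 ribosomal protein genes stay close to 0, and the osmotic and 2-cell embryo genes reach far below -1.

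**Figure D2:**
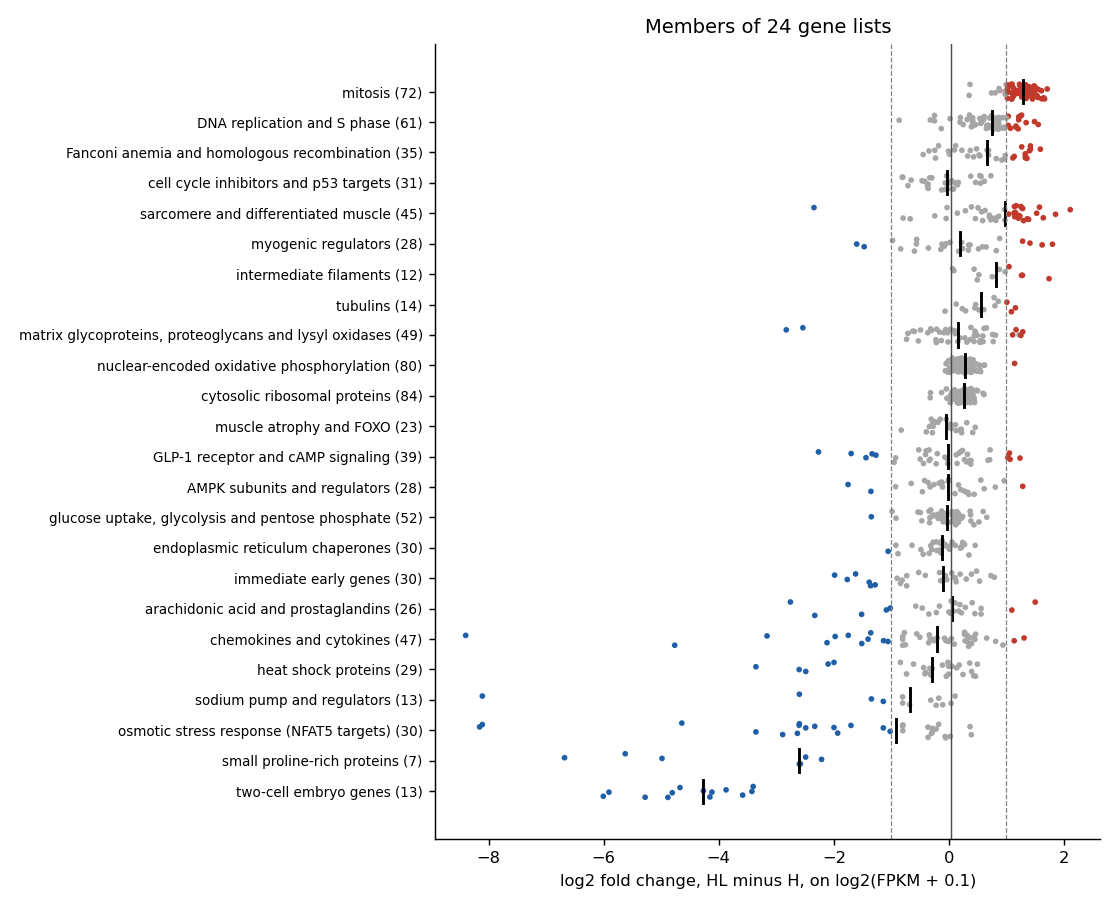
Points are members of 24 gene lists with their log2 fold change, HL minus H, in red where called higher, in blue where called lower and in grey where not called, black bars are list medians, the solid line is the median of all tested genes and the number of tested members follows each name. Mitosis, sarcomere and intermediate filament genes sit to the right of the line, and osmotic, proline-rich and 2-cell embryo genes to the left.

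Genes of mitosis were higher with liraglutide almost without exception. Of 72 tested, 63 rose with liraglutide (87.5%, against 3.50% of all tested genes) and none fell. In all 72 each HL library lay above each H library, against 30.9% of all tested genes. Their median log2 fold change was 1.28, and their summed level was 1184, 1379 and 1499 FPKM in H against 3077, 3070 and 3062 FPKM in HL. The NC libraries stood at 4306 to 4369 FPKM. Bub1, a kinase of the spindle checkpoint, was at 7.78, 10.2 and 10.8 FPKM in H and 32.7, 31.1 and 30.2 FPKM in HL (log2 fold change 1.71, SE 0.13, adjusted p = 0.000104). Ndc80, the kinetochore protein that grips spindle microtubules, was at 8.04, 10.1 and 10.1 FPKM in H and 28.6, 30.7 and 27.2 FPKM in HL (log2 fold change 1.61). The groups were separated by a wide gap in both genes, and the lowest library was H1 each time. Birc5, or survivin, a subunit of the chromosomal passenger complex, went from 37.7 ± 6.62 FPKM in H to 110 ± 6.07 FPKM in HL (SD, n = 3 each, log2 fold change 1.55, SE 0.13, adjusted p = 0.000154). Among further members, Cenpf and Cenpe of the kinetochore, the kinesin Kif15 and the kinase Melk rose by 1.66, 1.63, 1.65 and 1.61 on the log2 scale. The cyclins Ccna2 and Ccnb1, the anaphase activator Cdc20 and the decatenating enzyme Top2a rose by 1.46, 1.42, 1.32 and 1.31.

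The promoters of these genes were searched for TTTGAA, the core of the cell cycle homology region, on both strands, from 250 bases before to 50 bases after the RefSeq start (GRCm38.p6). Of the 72 mitosis genes, 61 had a promoter in the table and 42 of these held the motif (68.9%), against 14.5% of 9619 tested genes with a promoter and 20.2% of all 27025. A match is a description of the sequence and not a site of binding. Shown are the 200 bases before the start of 3 called members with large changes, with the motif in capitals (on the reverse strand it reads TTCAAA). Kif15 lies at chr9:122950881-122951080 on the plus strand, Ect2, an exchange factor for RhoA in cytokinesis, at chr3:27153879-27154078 on the minus strand, and Ncapg2, a condensin II subunit, at chr12:116405236-116405435 on the plus strand.
Kif15: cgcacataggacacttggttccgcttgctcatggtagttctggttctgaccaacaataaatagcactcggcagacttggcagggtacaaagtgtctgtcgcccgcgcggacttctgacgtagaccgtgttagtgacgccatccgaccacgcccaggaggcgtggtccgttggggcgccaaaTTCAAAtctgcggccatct
Ect2: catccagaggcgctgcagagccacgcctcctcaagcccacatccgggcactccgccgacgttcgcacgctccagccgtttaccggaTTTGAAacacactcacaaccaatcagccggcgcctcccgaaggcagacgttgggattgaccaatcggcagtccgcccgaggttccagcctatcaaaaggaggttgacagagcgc
Ncapg2: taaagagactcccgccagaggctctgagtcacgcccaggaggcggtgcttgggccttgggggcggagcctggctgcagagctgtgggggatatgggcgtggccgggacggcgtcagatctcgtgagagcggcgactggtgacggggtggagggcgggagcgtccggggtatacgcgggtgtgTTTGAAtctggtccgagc

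In Kif15 and Ncapg2 the motif starts 19 and 18 bases before the start of transcription, and in Ect2 it starts 114 bases before it. Kif15 was at 2.53, 4.09 and 4.04 FPKM in H and 11.02, 11.8 and 10.6 FPKM in HL, and Ect2 at 7.82, 12.3 and 12.3 FPKM in H and 31.7, 28.8 and 32.8 FPKM in HL (log2 fold change 1.55). Ncapg2, which was chosen for its promoter after its values were seen, was at 9.502, 12.1 and 12.9 FPKM in H and 31.9, 32.01 and 35.3 FPKM in HL (log2 fold change 1.53). In all 3 genes the HL libraries were at least 2 times as high as the highest H library.

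Genes of DNA replication moved in the same direction by less. Of 61 tested, 14 rose, against 3.50% of all tested genes, and none fell, with a median log2 fold change of 0.74. With a pseudocount of 1, 9 rose. The adjusted p alone passed for 49 higher members and 1 lower member. Without H replicate 2, 1 member fell. By the adjusted p alone, 3035 of all 13358 tested genes were higher and 2532 lower. Clspn, a mediator of the replication checkpoint, was at 3.41, 3.45 and 3.77 FPKM in H and 9.74, 11.1 and 11.04 FPKM in HL (log2 fold change 1.55, SE 0.11, adjusted p = 7.82e-05). Uhrf1, which brings the maintenance methyltransferase to replicated DNA, was at 15.6, 12.6 and 15.1 FPKM in H and 37.3, 37.6 and 35.01 FPKM in HL (log2 fold change 1.34). Rrm2, the regulated subunit of ribonucleotide reductase, went from 46.0 ± 4.22 FPKM in H to 108 ± 4.27 FPKM in HL (SD, n = 3 each, log2 fold change 1.23). The origin-licensing factor Cdc6, the cohesin acetyltransferase Esco2, the PCNA-associated factor Pclaf, the repressor E2f8 and the initiation factor Mcm10 rose by 1.26, 1.24, 1.49, 1.21 and 1.21 on the log2 scale. In these 5 genes NC was higher again, for example 108 FPKM for Pclaf against 34.4 FPKM in HL. The E2F motif TTTNNCGC, searched in the same way, was in 21 of 48 replication promoters (43.8%), against 10% of the promoters of tested genes and 5.93% of all. Shown are the 2 called members that held it in the 200 bases before the start, Uhrf1 at chr17:56303137-56303336 and Cdc6 at chr11:98907951-98908150, both on the plus strand, with the motif in capitals.
Uhrf1: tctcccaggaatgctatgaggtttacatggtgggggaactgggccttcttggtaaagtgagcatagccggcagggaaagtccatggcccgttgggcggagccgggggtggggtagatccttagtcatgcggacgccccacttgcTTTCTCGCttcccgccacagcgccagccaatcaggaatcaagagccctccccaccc
Cdc6: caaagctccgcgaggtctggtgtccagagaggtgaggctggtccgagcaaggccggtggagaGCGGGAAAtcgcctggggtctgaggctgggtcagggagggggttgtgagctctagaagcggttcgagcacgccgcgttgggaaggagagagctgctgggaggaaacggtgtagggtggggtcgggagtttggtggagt

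Genes of the Fanconi anemia pathway and of homologous recombination, which repair crosslinks and breaks of replicating DNA, were also higher where they were called. Of 35 tested, 11 rose (31.4%, against 3.50% of all tested genes) and none fell (median log2 fold change 0.67). Rad54l, a motor protein of strand exchange, was at 1.86, 1.87 and 2.28 FPKM in H and 6.41, 6.20 and 6.02 FPKM in HL (log2 fold change 1.59, SE 0.13, adjusted p = 0.000176). Fanci, the partner of FANCD2 at crosslinks, was at 1.16, 1.73 and 2.07 FPKM in H and 4.65, 4.46 and 4.303 FPKM in HL (log2 fold change 1.42), and Brca1 was at 3.41, 3.20 and 5.01 FPKM in H and 9.22, 9.77 and 10.1 FPKM in HL (log2 fold change 1.33). The helicase Blm and the nuclease subunit Eme1 rose by 1.401 and 1.42 on the log2 scale. With a pseudocount of 1, 7 members were called, and with a minimum mean level of 5 FPKM 4 were. Among the largest rises outside the lists were Neil3, a DNA glycosylase, Gen1, a resolvase of recombination junctions, Zwilch, a checkpoint protein of the kinetochore, and Pimreg and Parpbp, at log2 fold changes of 1.62, 1.64, 1.89, 1.58 and 1.66.

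None of 31 tested inhibitors of the cell cycle and targets of p53 was called in either direction, at a median log2 fold change of -0.04. At an adjusted p under 0.05 alone, 7 were higher and 9 lower, against 3035 and 2532 of all 13358 tested genes. Cdkn1a, the CDK inhibitor p21, was at 324, 288 and 299 FPKM in H and 294, 302 and 290.1 FPKM in HL, and its log2 fold change of -0.04 changed sign when H replicate 1 was left out (0.01). Its level in NC was 129 FPKM. Bax, which permeabilizes mitochondria in apoptosis, was at 267, 205 and 229 FPKM in H and 199, 177 and 192 FPKM in HL (log2 fold change -0.298, SE 0.10, adjusted p = 0.0506), and Ccng1, a cyclin induced by p53, was at 106, 143 and 128 FPKM in H and 185, 175 and 184 FPKM in HL (log2 fold change 0.54, SE 0.11, adjusted p = 0.00657).

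**Figure D3:**
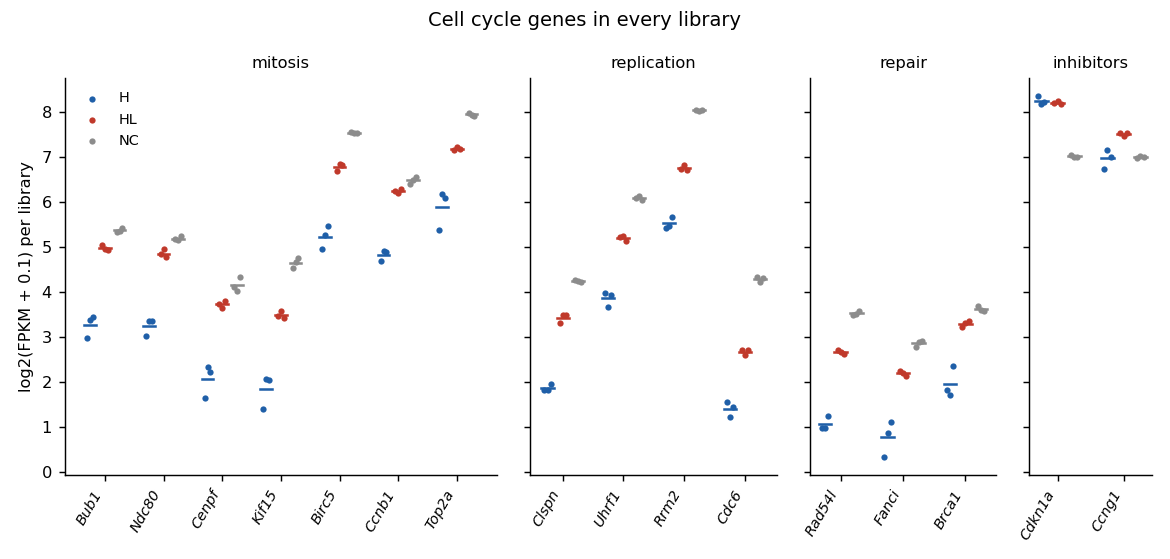
Points are single libraries and short bars group means, as log2(FPKM + 0.1), for 16 genes of mitosis, replication, repair and cell cycle inhibition in H (blue), HL (red) and NC (grey). In the first 14 genes the HL libraries lie above the H libraries and below the NC libraries, and Cdkn1a and Ccng1 do not share this order.

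Genes of differentiated muscle rose at low levels. Of 80 in the table, 45 were tested, 22 rose (48.9%, against 3.50% of all tested genes) and 1 fell (2.22%, against 5.89%). The median log2 fold change was 0.97, and in 33 of the 45 the HL libraries lay wholly above H (30.9% over all tested genes). Of the 45, 2 had passed the level filter through HL alone, so that their difference follows from the filter. With a pseudocount of 1, 11 of the list rose, with a minimum mean level of 5 FPKM 13 did, and without H replicate 2, 2 fell. Acta1, skeletal actin, was at 2.89, 3.54 and 4.41 FPKM in H and 10.3, 10.6 and 11.5 FPKM in HL (log2 fold change 1.57, SE 0.16, adjusted p = 0.000371). Tnni2, the inhibitory troponin of fast fibres, was at 1.23, 1.47 and 2.13 FPKM in H and 3.87, 4.54 and 4.41 FPKM in HL (log2 fold change 1.39), and Xirp1, an actin-binding repeat protein of adhesion sites, was at 2.66, 2.25 and 3.12 FPKM in H and 7.81, 7.83 and 7.88 FPKM in HL (log2 fold change 1.53). Each of these genes kept H and HL apart, and NC was near H, at 4.04, 1.57 and 2.16 FPKM. Myl1, an essential myosin light chain, and Ttn, the giant spring of the sarcomere, rose by 2.11 and 1.85 on the log2 scale, Ttn from 1.13 to 3.31 FPKM in H. Myom1, a protein of the M band, was the exception, at 10.2, 5.75 and 10.99 FPKM in H and 1.88, 1.81 and 1.24 FPKM in HL (log2 fold change -2.35, SE 0.27, adjusted p = 0.000681).

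The acetylcholine receptor receives the signal of the motor nerve, and members of the muscle list that rose include subunits of it. Chrnd, its delta subunit, was at 38.6, 23.7 and 43.4 FPKM in H and 88.5, 86.9 and 87.98 FPKM in HL (log2 fold change 1.36, SE 0.20, adjusted p = 0.00189). Chrna1, the alpha subunit, was at 36.7, 28.4 and 40.9 FPKM in H and 75.8, 77.5 and 76.6 FPKM in HL (log2 fold change 1.13), and without H replicate 2 its log2 fold change was 0.98. Cdh15, the M-cadherin of myoblast contacts, was at 9.15, 7.93 and 12.5 FPKM in H and 23.8, 23.3 and 23.4 FPKM in HL (log2 fold change 1.27). In all 3 genes the groups were apart, and the HL libraries lay closer together than the H libraries. Of 5 markers of fused cells, Acta1 and Myog were called higher and the other 3 were under 1 FPKM in all 6 libraries and not tested. Of these, Myh3, embryonic myosin, was at 0.193, 0.128 and 0.198 FPKM in H and 0.578, 0.655 and 0.512 FPKM in HL. Ckm, muscle creatine kinase, was at 0.0456, 0 and 0.0906 FPKM in H and 0.147, 0.362 and 0.523 FPKM in HL, again without overlap. Mymk, which drives fusion, overlapped, at 0.316, 0.221 and 0.196 FPKM in H and 0.785, 0.715 and 0.258 FPKM in HL.

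Among the myogenic regulators, 4 of 28 rose and 2 fell (14.3% and 7.14%, against 3.50% and 5.89% of all tested genes). Their median log2 fold change was 0.20, and 3 of the 28 had passed the level filter through 1 group alone. Myog, the factor that starts terminal differentiation, was at 0.682, 0.723 and 0.642 FPKM in H and 1.80, 2.17 and 1.97 FPKM in HL (log2 fold change 1.41, SE 0.20, adjusted p = 0.00156), and it passed the level filter through HL alone, so that its rise follows from the filter. With a pseudocount of 1 its log2 fold change was 0.82. Id2, an inhibitor that binds the partners of MYOD1, was at 34.1, 37.2 and 40.4 FPKM in H and 12.9, 11.3 and 12.4 FPKM in HL (log2 fold change -1.602, SE 0.09, adjusted p = 4.35e-05), below the 33.8 FPKM of NC. Cdon, a coreceptor of myoblast contacts, was at 7.96, 12.4 and 12.3 FPKM in H and 25.7, 26.1 and 26.4 FPKM in HL (log2 fold change 1.28). Myod1 itself was at 4.09, 7.63 and 12.8 FPKM in H and 13.9, 12.7 and 12.8 FPKM in HL, so that H3 reached the level of HL, and was not called (log2 fold change 0.82, SE 0.36, adjusted p = 0.102). Without H replicate 3 it passed, at 1.22. Myf5 was at 11.1, 10.5 and 12.3 FPKM in H and 22.3, 18.7 and 21.8 FPKM in HL, apart but under the fold threshold (log2 fold change 0.88, SE 0.10, adjusted p = 0.000666). Des, the intermediate filament of muscle, was at 145, 192 and 235 FPKM in H and 368, 364 and 374 FPKM in HL (log2 fold change 0.98, SE 0.16, adjusted p = 0.00257) and passed without H replicate 3, at 1.14.

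Genes of the matrix and the cytoskeleton outside the sarcomere gave fewer calls. Of 49 matrix glycoproteins, proteoglycans and lysyl oxidases, 4 rose and 2 fell (8.16% and 4.08%, against 3.50% and 5.89% of all tested genes). Without H replicate 1, 5 fell. Fibronectin (Fn1) was at 675, 924 and 832 FPKM in H and 1920, 1923 and 1894 FPKM in HL (log2 fold change 1.25, SE 0.11, adjusted p = 0.000201). Thrombospondin 2 (Thbs2), an antiangiogenic matrix protein, went from 49.1 ± 2.76 FPKM in H to 110.3 ± 1.85 FPKM in HL (SD, n = 3 each). Within the lysyl oxidases, which crosslink collagen, Loxl2 was at 13.8, 17.6 and 21.6 FPKM in H and 43.9, 42.9 and 40.98 FPKM in HL (log2 fold change 1.28), while Loxl4 was at 57.5, 37.96 and 46.5 FPKM in H and 8.30, 7.62 and 7.95 FPKM in HL (log2 fold change -2.54). The pair thus moved in opposite directions, with no overlap of the libraries in either gene. Tnxb, a tenascin, fell to 1.71 to 1.78 FPKM from 9.99 to 16.4 FPKM. The receptor subunit Itga6 rose by 1.2. Of 22 collagen chains 1 was called higher (4.55%, near the 3.50% of all tested genes). It was Col24a1, a minor fibrillar chain. Among other alternatives, it missed the call when H replicate 2 (0.95) or HL replicate 1 (0.86) was left out. Col3a1, the most abundant tested chain, was at 267, 472 and 304 FPKM in H and 555, 537 and 538 FPKM in HL (log2 fold change 0.69, SE 0.19, adjusted p = 0.024).

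Among 12 intermediate filament genes, 4 rose (33.3%, against 3.50% of all tested genes) and none fell, with a median of 0.82. The neurofilaments Nefl and Nefm, best known from neurons, were at 26.4, 19.5 and 27.2 FPKM in H and 80.6, 81.2 and 80.5 FPKM in HL and at 3.84, 3.25 and 4.22 FPKM in H and 8.96, 9.78 and 9.01 FPKM in HL (log2 fold change 1.74 and 1.28). Among 5 neuronal markers, Rbfox3 and Snap25 were under 0.1 FPKM in all 6 libraries, and Tubb3, a tubulin, was at 10.6, 6.58 and 9.5 FPKM in H and 15.04, 16.3 and 14.5 FPKM in HL, higher in HL under the fold threshold (log2 fold change 0.8, SE 0.17, adjusted p = 0.0087). The sum of the 5, Nefl and Nefm included, was 29.4 to 41 FPKM in H and 104 to 107 FPKM in HL. Vim, vimentin, was at 1942, 1880 and 1895 FPKM in H and 2608, 2578 and 2561 FPKM in HL (log2 fold change 0.44, SE 0.05, adjusted p = 0.000598), which is higher in HL without reaching the fold threshold. Of 14 tubulins, 3 rose, Tubb2b at 57.5, 61.3 and 72.2 FPKM in H and 139, 146 and 139 FPKM in HL (log2 fold change 1.16), and Tuba1a and Tuba1b, whose log2 fold changes of 1.09 and 1.01 became 0.98 and 0.92 without H replicate 2 and 0.99 and 0.91 after rescaling to TPM. Pdlim3, a Z-disc protein, rose by 1.80, and Gap43, a growth cone protein, was at 3.86, 2.44 and 3.76 FPKM in H and 11.1, 13.4 and 13.6 FPKM in HL (log2 fold change 1.91, SE 0.19, adjusted p = 0.00034).

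**Figure D4:**
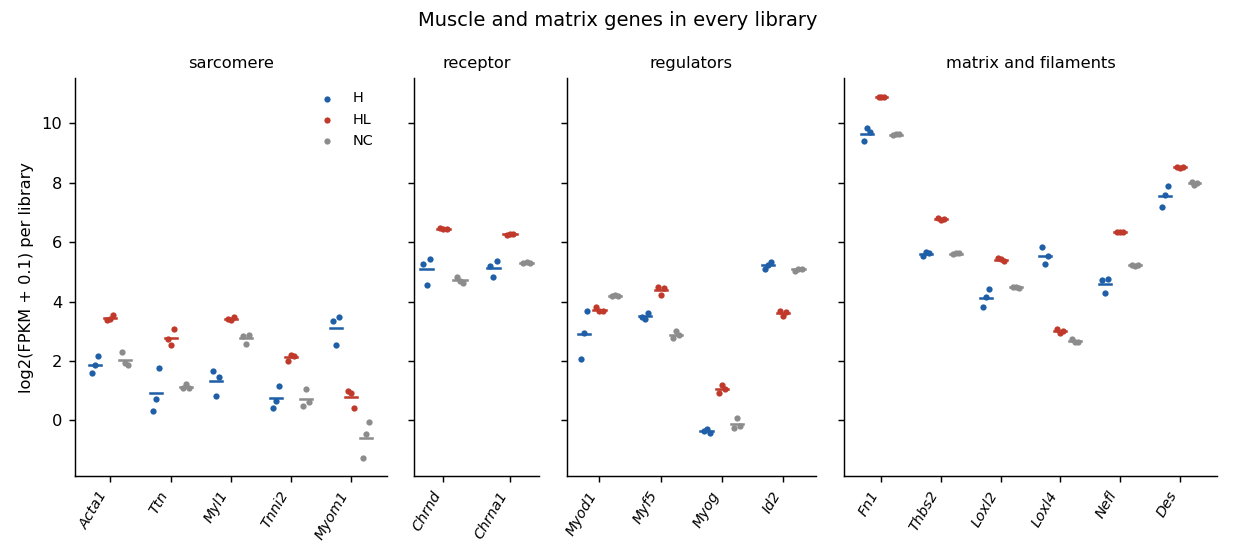
Points are single libraries and short bars group means, as log2(FPKM + 0.1), for 17 genes of muscle, matrix and filaments in H (blue), HL (red) and NC (grey). HL is the highest of the 3 groups for Acta1, Ttn, Chrnd, Myf5, Fn1, Thbs2, Loxl2 and Nefl, while Myom1, Loxl4 and Id2 are lower in HL than in H.

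Genes of the osmotic stress response fell in many members. Of 30 tested targets of NFAT5, 15 fell, against 5.89% of all tested genes, and none rose, with a median of -0.91. Slc6a12 and Fxyd2 had passed the level filter through H alone, so that their fall follows from the filter. Of these 15, 3 also stand in the list of the sodium pump and 4 in that of heat shock proteins. Slc6a12, which imports the osmolyte betaine, was at 102, 57.6 and 67.1 FPKM in H and 0.0284, 0.0783 and 0.640 FPKM in HL (log2 fold change -8.16, SE 0.63, adjusted p = 0.000204), and NC was at 0.0295 FPKM. Aldose reductase (Akr1b3), which turns glucose into the osmolyte sorbitol, was at 6845, 4041 and 4858 FPKM in H and 203, 212 and 201 FPKM in HL (log2 fold change -4.64), and its relative Akr1b8 at 681, 449.8 and 508 FPKM in H and 87.9, 85.4 and 86.5 FPKM in HL (log2 fold change -2.63). For both reductases the HL libraries lay at the level of NC, which was 209.7 and 89.7 FPKM. Not every carrier of osmolytes was called: Slc6a6, the taurine transporter, was at 67.3, 63.3 and 68.7 FPKM in H and 86.5, 87.5 and 82.9 FPKM in HL (log2 fold change 0.37, SE 0.06, adjusted p = 0.0035), higher in HL. The sequence TGGAAA, bound by NFAT5, was in 22.7% of the promoters of 22 list members. It was in 19.8% of those of all tested genes and in 23.9% of all promoters, so the list did not stand out.

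Accessory subunits of the sodium pump were lower with liraglutide. Of 13 tested genes of the pump and its regulators 4 fell (30.8%, against 5.89% of all tested genes) and none rose. The beta subunit Atp1b1, which carries the pump to the membrane, was at 110.1, 69.1 and 80.8 FPKM in H and 14.2, 13.3 and 14.3 FPKM in HL (log2 fold change -2.60, SE 0.16, adjusted p = 4.98e-05). Its relative Atp1b3 was at 234, 179.8 and 195 FPKM in H and 77.4, 78.5 and 81.6 FPKM in HL (log2 fold change -1.35). Atp1b1 remained above its level in NC of 3.45 FPKM, whereas Atp1b3 was under its level of 103 FPKM. Fxyd2, the gamma subunit, was at 48.9, 28.4 and 34.2 FPKM in H and 0.127, 0 and 0 FPKM in HL, and it was listed at 0 in all 3 NC libraries. The ranges of H and HL were far apart in these 3 genes, with H1 the highest H library and H2 the lowest.

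Of 29 heat shock proteins, 5 fell (17.2%, against 5.89% of all tested genes) and none rose. Cryab, the alpha B crystallin, was at 2359, 1322 and 1669 FPKM in H and 270, 317 and 270.5 FPKM in HL (log2 fold change -2.60, SE 0.19, adjusted p = 0.000116), and Hspb2, its neighbour in the genome, at 89.0, 68.8 and 85.6 FPKM in H and 16.6, 21.3 and 23.1 FPKM in HL (log2 fold change -1.997). The HSP110 proteins Hspa4l and Hsph1, which exchange nucleotide on HSP70, had log2 fold changes of -2.49 and -2.099, and Hsph1 stood at 224 to 332 FPKM in H and at 61.6 to 63.8 FPKM in HL. Hspa1b, an inducible HSP70, was at 220, 126 and 182 FPKM in H and 16.8, 15.1 and 18.3 FPKM in HL (log2 fold change -3.35), but it shares most of its sequence with Hspa1a, so reads may be divided between them. Of 30 chaperone genes of the endoplasmic reticulum 1 was called, lower, and none was without H replicate 2. Hspa5, the HSP70 of that compartment, was at 746, 826 and 882 FPKM in H and 434, 449.5 and 442 FPKM in HL (log2 fold change -0.88, SE 0.07, adjusted p = 0.00015), below the fold threshold and below its level in NC, 779 FPKM. Calr, calreticulin, was at 847, 881 and 878 FPKM in H and 551, 581 and 540.3 FPKM in HL (log2 fold change -0.64, SE 0.06, adjusted p = 0.000202).

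**Figure D5:**
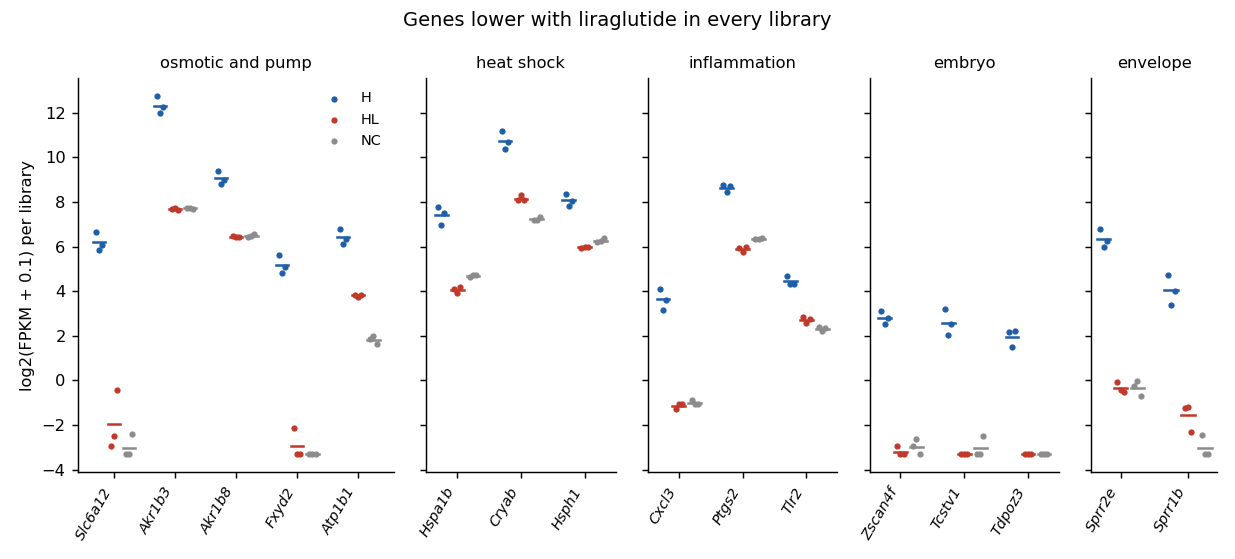
Points are single libraries and short bars group means, as log2(FPKM + 0.1), for 16 genes of the osmotic response, heat shock, inflammation, the 2-cell embryo and the epidermal envelope in H (blue), HL (red) and NC (grey). A value of 0 FPKM plots at the bottom, near -3.3. The HL libraries lie below the H libraries for all 16, and for most of them close to the NC libraries.

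Among inflammatory genes the calls were mostly falls. Of 47 chemokines, cytokines and their receptors, 11 fell and 2 rose (23.4% and 4.26%, against 5.89% and 3.50% of all tested genes). With a minimum mean level of 5 FPKM 7 fell, and without H replicate 1, 1 rose. Csf1r, Cxcl3 and Cxcl2 had passed the level filter through H alone, and their fall follows from the filter. Csf1r, the receptor of macrophage colony-stimulating factor, was at 149, 91.5 and 133 FPKM in H and 0.249, 0.282 and 0.255 FPKM in HL (log2 fold change -8.40). Cxcl3, a neutrophil chemokine, was at 17.2, 8.93 and 12.1 FPKM in H and 0.308, 0.379 and 0.384 FPKM in HL (log2 fold change -4.77, SE 0.25, adjusted p = 3.39e-05), and its neighbour Cxcl2 at 2.66, 1.27 and 2.14 FPKM in H and 0.264, 0.224 and 0 FPKM in HL (log2 fold change -3.16). Tnfsf9, the ligand of 4-1BB, was at 27.3, 16.3 and 28.2 FPKM in H and 5.31, 5.47 and 5.06 FPKM in HL (log2 fold change -2.12), Il11 at 6.95, 5.49 and 6.78 FPKM in H and 1.91, 1.39 and 1.39 FPKM in HL (log2 fold change -1.98) and Tslp at 11.7, 9.65 and 6.999 FPKM in H and 3.03, 3.70 and 2.85 FPKM in HL (log2 fold change -1.51). Il15, a cytokine made by muscle, fell by 1.75, from 6.14 to 13.98 FPKM to 1.79 to 4.33 FPKM. All of these genes kept H above HL in every library.

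The NF-kB sequence GGG followed after 3 bases by TTCC, searched on both strands, was in 9 of 31 promoters of this list (29.0%) and in 12 of 28 of the list of Toll-like receptors and NF-kB genes (42.9%), against 7.35% of the promoters of tested genes and 6.31% of all. Cxcl3 at chr5:90785901-90786100 and Cxcl2 at chr5:90903699-90903898, both on the plus strand, are shown with their matches in capitals. In each, the longer run of capitals is a pair of overlapping matches, on either strand, and the shorter run is a match on the strand shown.
Cxcl3: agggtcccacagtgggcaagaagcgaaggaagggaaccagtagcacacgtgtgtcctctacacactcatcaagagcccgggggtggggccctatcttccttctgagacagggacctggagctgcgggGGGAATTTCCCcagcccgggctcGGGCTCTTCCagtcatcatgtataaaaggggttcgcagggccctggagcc
Cxcl2: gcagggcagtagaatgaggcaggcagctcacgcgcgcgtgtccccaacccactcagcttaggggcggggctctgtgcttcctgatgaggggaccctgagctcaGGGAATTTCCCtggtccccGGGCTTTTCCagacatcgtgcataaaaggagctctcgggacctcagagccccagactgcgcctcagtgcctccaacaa

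Of 38 Toll-like receptors and genes of the NF-kB pathway, 3 fell (7.89%, near the 5.89% of all tested genes) and none rose. Tlr2, the receptor of bacterial lipopeptides, was at 26.0, 19.99 and 19.98 FPKM in H and 6.97, 5.80 and 6.59 FPKM in HL (log2 fold change -1.75, SE 0.13, adjusted p = 0.000104). Cd14, a coreceptor of Toll-like receptors, was at 78.5, 64.9 and 68.3 FPKM in H and 30.8, 29.1 and 31.9 FPKM in HL (log2 fold change -1.2), and the adaptor Traf1 at 9.91, 7.43 and 6.75 FPKM in H and 3.77, 3.12 and 3.06 FPKM in HL (log2 fold change -1.24). Each fell in all libraries, to a level in HL that was at or above that of NC. Of 42 interferon-stimulated and MHC class I genes none was called, and the adjusted p alone passed for 6 higher and 6 lower members. Among all 13358 tested genes the adjusted p alone passed for 3035 higher and 2532 lower. B2m, the light chain of MHC class I, was at 539, 667 and 584 FPKM in H and 786, 746 and 766 FPKM in HL (log2 fold change 0.37, SE 0.08, adjusted p = 0.0111).

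Prostaglandins and leukotrienes are made from arachidonic acid in separate branches. Of 26 tested genes of these branches 5 fell and 2 rose (19.2% and 7.69%, against 5.89% and 3.50% of all tested genes). Without H replicate 1 or with a pseudocount of 1, 1 rose, and 1 of the 26 had passed the level filter through H alone. Pla2g4a, the cytosolic phospholipase that releases arachidonic acid, was at 59.3, 52.9 and 54.8 FPKM in H and 11.4, 10.3 and 11.3 FPKM in HL (log2 fold change -2.33). Cyclooxygenase 2 (Ptgs2) was at 438, 346 and 418 FPKM in H and 61.5, 53.5 and 62.4 FPKM in HL (log2 fold change -2.75, SE 0.11, adjusted p = 9.29e-06), lower in HL than in NC (81.7 FPKM). Abcc4, an exporter of prostaglandin E2 and of cAMP, was at 25.4, 21.7 and 23.8 FPKM in H and 8.37, 7.60 and 8.55 FPKM in HL (log2 fold change -1.52). Cyclooxygenase 1 (Ptgs1) was at 302, 279.8 and 291 FPKM in H and 141, 148 and 141 FPKM in HL (-1.02 on the log2 scale, and -0.99 without H replicate 1). Alox5, which begins leukotriene synthesis from the same substrate, went the other way, at 9.93, 14.4 and 17.8 FPKM in H and 37.5, 38.2 and 40.8 FPKM in HL (log2 fold change 1.5, SE 0.19, adjusted p = 0.000984).

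Immediate early genes, which respond within minutes to growth factors or stress, were called in 6 of 30 cases, all lower. These 6 stand against 5.89% of all tested genes called lower, and 1 of the 30 had passed the level filter through H alone. Fosb was at 93.2, 56.0 and 71.3 FPKM in H and 21.2, 20.1 and 22.03 FPKM in HL (log2 fold change -1.77, SE 0.17, adjusted p = 0.000295), still above its level in NC of 3.33 FPKM. Arc, a cytoskeleton-associated protein, was at 16.2, 9.17 and 12.4 FPKM in H and 2.85, 2.97 and 3.26 FPKM in HL (log2 fold change -1.99), and Klf4, a zinc finger factor, at 61.5, 41.1 and 49.1 FPKM in H and 18.9, 19.3 and 19.9 FPKM in HL (log2 fold change -1.36). Ier3 and Mafk fell by 1.28 and 1.39. Among the EGF family and its feedback genes 2 of 31 fell and 1 rose (6.45% and 3.23%), near the 5.89% and 3.50% of all tested genes. None rose without HL replicate 1 or HL replicate 3, and 1 of the 31 had passed the level filter through HL alone. Ereg, epiregulin, was at 98.0, 76.9 and 79.1 FPKM in H and 19.3, 19.1 and 18.2 FPKM in HL (log2 fold change -2.15), and its receptor Egfr at 20.8, 25.1 and 18.4 FPKM in H and 10.3, 8.39 and 8.72 FPKM in HL (log2 fold change -1.21).

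Genes that are normally silent outside the early embryo were listed in H and were at or near 0 with liraglutide. Of 21 genes of the 2-cell embryo, 13 passed the level filter, all of them through the H libraries alone, so that their fall follows from the way they passed and their number supports nothing. Their summed level, over the 21, was 70.5, 44.4 and 53.3 FPKM in H, 1.33, 1.24 and 0.991 FPKM in HL and 1.36 to 1.69 FPKM in NC. Zscan4f, a zinc finger and SCAN protein of the 2-cell stage, was at 8.44, 5.67 and 6.89 FPKM in H and 0.0295, 0 and 0 FPKM in HL (log2 fold change -6.01, SE 0.27, adjusted p = 1.85e-05). Tcstv1 and Tdpoz3, embryonic genes of the same stage, were at 3.99 to 9.14 FPKM and 2.70 to 4.60 FPKM in H and were listed at 0 in all 3 HL libraries. Usp17le, a deubiquitinase, was at 15.3, 10.4 and 10.96 FPKM in H and 0.284, 0.357 and 0.296 FPKM in HL (log2 fold change -4.88). The Zscan4, Tdpoz, Tcstv and Usp17l families are made of near-identical copies, so the share of each copy is uncertain, whereas the sum depends on it less. H1 was the highest and H2 the lowest of the H libraries in the sum, as for the osmotic genes.

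Many of the largest falls carry only a systematic name. The protein-coding genes Gm4303, Gm4302 and Gm4301, which lie next to each other in the reference annotation, were at 18.5 to 35.9 FPKM, 17.2 to 28.4 FPKM and 8.08 to 13.6 FPKM in H, and their highest value in HL was 0.210 FPKM. Gm21761, Gm12794 and A430089I19Rik were at 22.9 to 43.1 FPKM, 15.6 to 21.4 FPKM and 8.02 to 12.9 FPKM in H and under 0.3 FPKM in HL. Reads may be shared between such copies, and all 6 had passed the filter through H alone, as had Prss35. Among genes with a name, Prss35, a secreted protease homologue, was at 85.5, 55.8 and 63.5 FPKM in H and 0.710, 0.614 and 0.489 FPKM in HL (log2 fold change -6.59, SE 0.19, adjusted p = 3.51e-06), and Rab15, a small GTPase of recycling endosomes, at 140.2, 75.8 and 108 FPKM in H and 1.496, 1.195 and 1.31 FPKM in HL (log2 fold change -6.20, SE 0.21, adjusted p = 6.61e-06).

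Small proline-rich proteins, which form the envelope of epidermal cells, were likewise detected in H and low with liraglutide. All 7 tested of 15 fell, against 5.89% of all tested genes, but 5 of them had passed the filter through H alone. Sprr2e was at 112, 62.9 and 75.5 FPKM in H and 0.851, 0.636 and 0.607 FPKM in HL (log2 fold change -6.68, SE 0.22, adjusted p = 6.61e-06), and Sprr1a at 85.6, 33.8 and 60.5 FPKM in H and 8.47, 11.2 and 8.02 FPKM in HL (log2 fold change -2.60). The epithelial markers Epcam, Cdh1, Krt5 and Krt18 were under 0.2 FPKM in all 6 libraries, Krt8 was at 0.388 to 0.782 FPKM in H and 0.299 to 0.442 FPKM in HL, and Krt14, a keratin of basal cells, which passed the level filter through H alone, was at 2.74, 1.61 and 1.74 FPKM in H and 0.857, 0.686 and 0.482 FPKM in HL (log2 fold change -1.45). Of 26 placental prolactins in the table only 3 were tested, and all 3 fell, against 5.89% of all tested genes. Prl2c2, also called proliferin, was at 2663, 1837 and 1885 FPKM in H and 122.8, 130.5 and 122 FPKM in HL (log2 fold change -4.07, SE 0.14, adjusted p = 6.61e-06). Prl2c3 was at 1540, 1012 and 1201 FPKM in H and 126, 135 and 129 FPKM in HL (log2 fold change -3.24). Prl2c2 and Prl2c3 are near-identical, so their separate values are uncertain, and each stood below NC in HL, at 198 and 170.3 FPKM.

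Calls were unevenly spread over the kinds of transcript, beside 5.89% lower and 3.50% higher of all tested genes. Of 857 long non-coding RNAs, 195 were lower (22.8%) and 38 higher, with a median log2 fold change of -0.29. Of 494 pseudogenes 78 were lower (15.8%) and 18 higher, and of 11752 protein-coding genes 488 were lower (4.15%) and 401 higher, with a median of 0.05. Levels differ between these kinds: of the 1609 tested genes with a mean under 2 FPKM 18.1% were lower, and of the 988 over 100 FPKM 2.73% were. Genes that had passed the level filter through H alone supplied 331 of all 787 falls, and these follow from the filter. How many of them each kind or level held was not counted, so the shares are not separate from the filter. Long non-coding RNAs made up 1.3 ± 0.00174% of the FPKM total in H and 1.02 ± 0.0205% in HL (SD, n = 3 each), an exact permutation test giving the smallest p that 3 against 3 libraries allow (p = 0.1, two-sided, 0.175 adjusted over the 7 shares compared). Neat1, the scaffold of paraspeckles, was at 509, 479.5 and 470.5 FPKM in H and 251, 257 and 247 FPKM in HL (log2 fold change -0.95, SE 0.06, adjusted p = 4.98e-05), short of the fold threshold, and it passed after rescaling to TPM, at -1.05. The largest called log2 rise was Gm43520, a short transcript awaiting experimental support, at 0 FPKM in the 3 H libraries and 22.5 to 29.2 FPKM in HL. Its level in NC was 16.7 FPKM. Gm48275, a long non-coding RNA, was the reverse, at 10.3 to 11.9 FPKM in H, at 0 in HL, and in NC at 22.3 FPKM in replicate 1 and at 0 in the others. Both genes had passed the level filter through 1 group alone, so that their change follows from the filter.

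The receptor of liraglutide was barely detected. Glp1r was at 0.612, 0.536 and 0.518 FPKM in H and at 0.124, 0.117 and 0.187 FPKM in HL, and it was not tested because it stayed under 1 FPKM throughout. Of 39 genes of GLP-1 receptor and cAMP signaling, 4 rose and 5 fell (10.3% and 12.8%, against 3.50% and 5.89% of all tested genes). The median log2 fold change was -0.02. Crem, a repressor that cAMP itself induces, was at 72.2, 54.9 and 61.9 FPKM in H and 18.9, 19.6 and 19.1 FPKM in HL (log2 fold change -1.70, SE 0.10, adjusted p = 4.98e-05). The regulator of G protein signaling Rgs2 was at 9.15, 7.93 and 9.05 FPKM in H and 2.32, 1.35 and 1.64 FPKM in HL (log2 fold change -2.27), and the phosphodiesterases Pde8b and Pde1a at 4.06, 4.24 and 4.46 FPKM in H and 1.18, 1.72 and 1.67 FPKM in HL and at 6.93, 7.24 and 8.28 FPKM in H and 2.81, 3.90 and 2.56 FPKM in HL. These genes, all lower in HL, stood beside Pkia, the inhibitor of protein kinase A, which was higher, at 4.55, 5.70 and 6.58 FPKM in H and 12.4, 12.8 and 14.5 FPKM in HL (log2 fold change 1.24). Creb5 and Pde7a, at log2 fold changes of 1.05 and 1.06, were 2 of the other 3 rises, and with a pseudocount of 1, after rescaling to TPM or without H replicate 1 only 1 of the 4 was called (2 without HL replicate 1). The cAMP response element TGACGTCA was in 2 of 28 promoters of the list (7.14%), against 3.67% of those of tested genes.

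Of 28 subunits and regulators of the energy sensor AMPK, 1 rose and 2 fell (3.57% and 7.14%), near the 3.50% and 5.89% of all tested genes. Without H replicate 2 or HL replicate 1, 2 rose, and 1 of the 28 had passed the level filter through HL alone. Prkaa1, the catalytic alpha 1 subunit, was at 28.3, 31.9 and 33.7 FPKM in H and 37.95, 36.2 and 38.9 FPKM in HL (log2 fold change 0.27, SE 0.08, adjusted p = 0.0362), and Prkaa2, the alpha 2 subunit, was at 1.32, 1.21 and 1.46 FPKM in H and 1.63, 1.56 and 1.84 FPKM in HL (log2 fold change 0.32, SE 0.18, adjusted p = 0.205). Cab39l, a scaffold of the upstream kinase LKB1, was at 57.6, 41.6 and 50.1 FPKM in H and 12.96, 14.98 and 15.9 FPKM in HL (log2 fold change -1.75), and Flcn, folliculin, at 35.8, 25.2 and 27.5 FPKM in H and 11.8, 10.9 and 11.3 FPKM in HL (log2 fold change -1.35). None of 23 genes of muscle atrophy and FOXO was called. Fbxo32, which encodes the ubiquitin ligase atrogin-1, was at 15.2, 21.7 and 13.6 FPKM in H and 18.8, 20.2 and 18.5 FPKM in HL (log2 fold change 0.21, SE 0.17, adjusted p = 0.328). Trim63, which encodes MuRF1, was at 0.899, 1.26 and 0.621 FPKM in H and at 0.825, 1.12 and 0.915 FPKM in HL, with overlapping groups, and was not tested.

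Genes of energy metabolism shifted little. Of 52 genes of glucose uptake, glycolysis and the pentose phosphate path 1 was called, Pdk4, the kinase that shuts pyruvate out of mitochondria, at 27.1, 21.99 and 23.9 FPKM in H and 9.37, 10.1 and 8.97 FPKM in HL (log2 fold change -1.35, SE 0.10, adjusted p = 0.000106). Without H replicate 1 or after rescaling to TPM 3 of this list fell, and without H replicate 3 or HL replicate 2, 2 fell. Pkm, pyruvate kinase, was at 2552, 2132 and 2104 FPKM in H and 1794, 1806 and 1763 FPKM in HL (log2 fold change -0.33, SE 0.08, adjusted p = 0.0148). Of 80 nuclear genes of oxidative phosphorylation 1 was called higher (none without H replicate 1 or HL replicate 1), but the adjusted p alone passed in 50 members, all of them higher, with a median log2 fold change of 0.27. Cytosolic ribosomal proteins had the same median, 0.27, over 84 genes, where the adjusted p passed for 50 higher and 2 lower members and none was called. Their share of the FPKM total was 10.6 ± 0.542% in H and 11.9 ± 0.303% in HL (SD, n = 3 each, exact permutation p = 0.1, the smallest possible). Both medians are to be read against that of all genes, which TPM moved from 0.04 to -0.06. The counts by adjusted p alone stand against 3035 higher and 2532 lower of all 13358 tested genes.

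Mitochondrially encoded proteins gave no call in 13 genes, and mt-Co1, a cytochrome oxidase subunit, was at 9825, 11660 and 9558 FPKM in H and 12500, 14120 and 13220 FPKM in HL (log2 fold change 0.36, SE 0.09, adjusted p = 0.0145). The mitochondrial ribosomal RNA mt-Rnr2 was at 494, 825 and 648 FPKM in H and 252, 228 and 225 FPKM in HL (log2 fold change -1.45, SE 0.17, adjusted p = 0.000669). The companion mt-Rnr1 was at 209.5, 985 and 1099 FPKM in H and 134, 119 and 133 FPKM in HL and was not called (log2 fold change -2.25, SE 0.69, adjusted p = 0.0528). Its library H1 lay close to HL, and without it the adjusted p passed, at a log2 fold change of -3.02. The libraries were made from enriched mRNA, in which ribosomal RNA is a remainder.

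Of 39 ATF4 targets, genes of the response to amino acid shortage, 4 fell (10.3%, against 5.89% of all tested genes) and none rose. Nupr1, a stress-induced nuclear protein, was at 833, 452 and 607 FPKM in H and 77.4, 88.1 and 82.0 FPKM in HL (log2 fold change -2.89, SE 0.20, adjusted p = 8.51e-05), Chac1, which degrades glutathione, at 81.8, 61.9 and 58.4 FPKM in H and 24.5, 25.8 and 25.9 FPKM in HL (log2 fold change -1.39), and Ppp1r15a, a phosphatase subunit that restores translation, at 122, 85.0 and 93.9 FPKM in H and 42.3, 40.4 and 40.2 FPKM in HL (log2 fold change -1.27). Of 54 NRF2 targets and antioxidant enzymes, 4 fell (7.41%, near that share) and none rose, and 1 rose without H replicate 3. Heme oxygenase 1 (Hmox1) went from 323 ± 46.1 FPKM in H to 51.5 ± 1.49 FPKM in HL (SD, n = 3 each, log2 fold change -2.64), and Gclm, a subunit of the enzyme that limits glutathione synthesis, was at 75.0, 56.6 and 63.9 FPKM in H and 28.6, 25.8 and 24.6 FPKM in HL (log2 fold change -1.298). Gsta1, a glutathione transferase with close relatives, fell by 2.45. The antioxidant response element TGACNNNGC was in 13 of 45 promoters of this list (28.9%), against 16.8% of those of tested genes. The ferritin heavy chain Fth1, another NRF2 target, was at 2738, 2376 and 2365 FPKM in H and 1617, 1691 and 1572 FPKM in HL (log2 fold change -0.61, SE 0.07, adjusted p = 0.000747).

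Several further lists gave no call at all or a single call. None of 78 mitochondrial ribosomal proteins, 20 aminoacyl-tRNA synthetases, 27 nuclear pore proteins or 23 plasminogen activators and serpins was called. Without H replicate 2, 1 member each of the mitochondrial ribosomal and nuclear pore lists fell and 1 of the serpin list rose and 1 fell, and 1 of the serpin list fell without H replicate 1 or HL replicate 3. After rescaling to TPM, 3 of the serpin list and 1 each of the mitochondrial ribosomal and nuclear pore lists fell. Of 41 proteasome subunits and assembly factors, only Psmd5, a chaperone of assembly, was called, at 75.7, 49.4 and 62.2 FPKM in H and 20.7, 19.7 and 18.1 FPKM in HL (log2 fold change -1.66, SE 0.15, adjusted p = 0.000228). At an adjusted p alone, the mitochondrial ribosomal list had 18 higher and 10 lower, and the nuclear pore list 10 higher and 7 lower. These counts are to be read against 3035 higher and 2532 lower among all 13358 tested genes. In absolute terms, the largest gain of a called gene was that of Fn1, and the largest losses were those of Akr1b3, Prl2c2 and Cryab. Among secreted products below the fold threshold, Spp1, osteopontin, was at 4952, 6758 and 6536 FPKM in H and 3511, 3650 and 3692 FPKM in HL (log2 fold change -0.74, SE 0.12, adjusted p = 0.00234), Cck, cholecystokinin, at 1302, 1159 and 1024 FPKM in H and 633, 649.8 and 683 FPKM in HL (log2 fold change -0.82, SE 0.09, adjusted p = 0.00056), and the lectin Lgals1 at 2584, 2650 and 2746 FPKM in H and 4382, 4948 and 4293 FPKM in HL (log2 fold change 0.769, SE 0.07, adjusted p = 0.000231).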

How the data were processed

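RNA of C2C12 cells was sequenced in 9 libraries, and the authors deposited FPKM per gene. The submitters' processing notes name HISAT2 2.1.0, StringTie 1.3.3b and mm39, whereas the methods of the study name a human reference, yet the identifiers are mouse Ensembl genes. The deposited values carry the name of another quantifier, Salmon, and which tool made them is not settled here. No counts were used here. The comparison took the log2(FPKM + 0.1) values of H and HL to limma 3.58.1 (R 4.3.3, robust empirical Bayes with a trend, statmod 1.5.0), with Benjamini-Hochberg adjustment over 13358 genes. Shares of FPKM totals were compared by exact permutation tests (SciPy 1.17.1, Python 3.11.15, pandas 2.3.3, matplotlib 3.10.9), which with 3 against 3 libraries cannot give less than 0.1. On simulated data of 12902 genes, the fit called 39 of 50 genes changed by 1.2 on the log2 scale, 43 of 50 at 1.5, 47 of 50 at 2, 45 of 50 at 3, and 2 of 12707 unchanged genes. The simulated noise was independent, with 1 pooled SD per gene. It thus lacked the wider spread of H and any shift shared by genes, so the rates may differ in the real data. Changed genes that missed the level filter counted as not called.

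The members, the gene lists and the tests were chosen with earlier results of these data known. Genes were named by rule: up to 8 called members of a list with the largest change, or its most abundant members where fewer than 3 were called, the 30 largest changes in each direction with a mean of at least 5 FPKM in the higher group, the 20 most abundant genes, the 15 largest differences of mean FPKM in each direction, genes central to the study, and cell type markers. Gene types and transcript lengths came from GENCODE M21 and promoters from RefSeq on GRCm38.p6, both of another build than the files. Alternatives covered the pseudocount, filter, scaling, variance model, replicate block, all 9 libraries and each replicate left out. Some items are not reported here.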

Additional observations from a re-analysis of the deposited data

How the results depend on the processing

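With a pseudocount of 1, 255 genes were called higher, and with a minimum mean of 5 FPKM 257 were called higher and 299 lower. With no filter on low values 1423 were lower. An adjusted p alone gave 3035 higher and 2532 lower. Leaving out 1 library at a time gave 388 to 551 higher (without H replicate 1 and H replicate 3) and 715 to 843 lower (without H replicate 1 and H replicate 2). The deviations of libraries with the same replicate number correlated at 0.03, -0.06 and -0.04, so the numbers did not pair the samples, and a fit with the replicate number as a block gave 462 higher and 797 lower. Of 166 named genes, 151 kept their direction and their side of the thresholds under every alternative. Leaving out 1 library at a time put Cdkn1a between -0.0773 (without H replicate 2) and 0.00794 (without H replicate 1), and Cd68 between -0.0496 (without H replicate 2) and 0.241 (without H replicate 3), so that both changed sign, and neither was called. Krt14 was at -0.84 with a pseudocount of 1 and then missed the call. mt-Rnr1 passed under 6 alternatives at -2.25 or, without H replicate 1, at -3.02. The FPKM values hold no counts, and the H libraries spread more than the HL libraries, with a median SD of 0.168 against 0.0847 on the log2 scale. The cause of these shifts was not tested.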

Other observations

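Genes of axon guidance and cell contact, which myoblasts also use to migrate and to meet, were mostly higher where they were called. Of 43 semaphorins, plexins, ephrins, netrins and their receptors, 7 rose and 1 fell (16.3% and 2.33%, against 3.50% and 5.89% of all tested genes). With a pseudocount of 1, 4 rose, and without H replicate 2, 3 fell (2 without HL replicate 1 or HL replicate 3). Robo1, a receptor of Slit proteins, was at 2.49, 2.44 and 3.33 FPKM in H and 6.75, 6.95 and 7.201 FPKM in HL (log2 fold change 1.32, SE 0.15, adjusted p = 0.00056), and Ntn1, netrin 1, at 8.95, 9.21 and 10.5 FPKM in H and 21.6, 22.4 and 23.5 FPKM in HL (log2 fold change 1.23). Sema6a and Sema4c rose by 1.33 and 1.14 on the log2 scale, whereas Sema6d was at 4.44, 3.70 and 4.43 FPKM in H and 0.909, 0.983 and 1.10 FPKM in HL (log2 fold change -1.97). Of 17 tested imprinted genes 4 rose (23.5%, against 3.50% of all tested genes) and none fell. The paternally expressed Peg3 was at 14.1, 17.7 and 22.1 FPKM in H and 55.2, 56.1 and 54.3 FPKM in HL (log2 fold change 1.64, SE 0.15, adjusted p = 0.000249), and Zim1, which lies in the same imprinted domain, at 2.12, 1.65 and 3.85 FPKM in H and 8.81, 7.503 and 6.28 FPKM in HL (log2 fold change 1.61). In both genes NC was near H, at 19.98 and 1.62 FPKM.

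Growth factors and their receptors were called in both directions, 8 higher and 7 lower of 51. These were 15.7% and 13.7%, against 3.50% and 5.89% of all tested genes. Of the 51, 2 had passed the level filter through H alone and 1 through HL alone. Angpt2, an antagonist of the receptor TIE2, was at 20.1, 15.4 and 15.97 FPKM in H and 3.30, 3.08 and 3.38 FPKM in HL (log2 fold change -2.35, SE 0.12, adjusted p = 3.45e-05), and Bdnf, a neurotrophin, at 23.1, 18.1 and 20.5 FPKM in H and 8.97, 8.18 and 8.49 FPKM in HL (log2 fold change -1.25). Ngfr, the p75 receptor of neurotrophins, was at 8.67, 5.83 and 10.9 FPKM in H and 21.8, 18.6 and 21.6 FPKM in HL (log2 fold change 1.32). Without H replicate 1, 5 of this list rose. Of 24 clock genes 2 fell and 1 rose (8.33% and 4.17%, near the 5.89% and 3.50% of all tested genes). None rose without H replicate 2. The median of the list was -0.39, and 13 of the 24 were lower at an adjusted p alone, against 2532 of all 13358. Ciart, a repressor of the clock, was at 18.6, 13.1 and 11.8 FPKM in H and 3.31, 3.29 and 3.24 FPKM in HL (log2 fold change -2.08, SE 0.17, adjusted p = 0.000145). The times of day at which the cultures were collected are not given in the sources used here. Hba-a1, a globin gene, was at 12.96, 12.7 and 18.6 FPKM in H and 32.5, 38.8 and 31.8 FPKM in HL (log2 fold change 1.23, SE 0.16, adjusted p = 0.00106), while the red cell markers Hbb-bs and Alas2 stayed under 0.4 FPKM in all 6 libraries.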
